A study of Homo sapiens with 6 samples.

Results

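TXNIP and ARRDC4, a pair of glucose-responsive alpha-arrestin genes, and MLX and MLXIP, which encode the factors known to drive them, were followed across 6 RNA-seq libraries of Cal33, an established line from a human squamous carcinoma of the mouth. The members were picked by gene name, with the abundance of these genes in the same libraries already known, and all 4 were found among the 14136 gene entries of the table. All libraries came from puromycin-selected cells (0.5 ug/ml) that had been transduced with lentivirus and stably carried pSin-EF2, either empty (Vector, n = 3) or encoding FLAG-tagged carboxylesterase 2 (CES2, n = 3), an esterase of the endoplasmic reticulum. The labels do not say whether a group is 1 transduction or several, or a pool or a clone, so the spread within a group may be technical. Abundance is given as TPM, a transcript abundance scaled by length and to a total of 1000000 in each library, and sequencing depth is unknown.

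As background, TXNIP encodes thioredoxin-interacting protein, which binds thioredoxin and promotes the removal of glucose transporters from the cell surface, and ARRDC4 encodes a related arrestin-domain protein that also restrains glucose uptake. MLXIP encodes MondoA, a basic helix-loop-helix leucine zipper factor that responds to glucose 6-phosphate, and MLX encodes its obligate partner. The dimer binds carbohydrate response elements, tandem E-boxes set a fixed distance apart, and TXNIP and ARRDC4 are among its best known targets. MLXIPL encodes ChREBP, the paralogue of MondoA that is best studied in liver and fat.

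The sequence upstream of TXNIP and ARRDC4 is shown because the 2 genes are described as targets of the same factor. The RefSeq promoter windows (GRCh38.p14, 250 bases before to 50 after the start) were searched on both strands for a tandem E-box pair, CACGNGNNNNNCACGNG, for the palindromic E-box CACGTG, which is a special case of either E-box of that pair, and for CCAAT, the letters of a CCAAT box. All 4 members had a window, and TXNIP had 2 listed starts, of which the upstream one is shown. Bases from 250 to 31 upstream of the start are printed, with matches in capitals.
TXNIP, chr1:145996610-145996829, minus strand: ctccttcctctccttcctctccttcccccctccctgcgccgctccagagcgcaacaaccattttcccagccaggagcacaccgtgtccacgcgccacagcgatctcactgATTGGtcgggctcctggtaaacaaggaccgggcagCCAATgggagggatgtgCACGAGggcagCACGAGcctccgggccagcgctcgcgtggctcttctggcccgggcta
ARRDC4, chr15:97960453-97960672, plus strand: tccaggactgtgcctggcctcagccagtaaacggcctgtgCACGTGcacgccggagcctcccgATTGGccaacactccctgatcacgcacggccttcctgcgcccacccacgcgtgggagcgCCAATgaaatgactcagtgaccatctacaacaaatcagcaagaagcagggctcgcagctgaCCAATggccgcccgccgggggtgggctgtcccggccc

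The TXNIP window held 1 tandem pair, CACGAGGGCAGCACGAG, from 88 to 72 bases upstream of the start (chr1:145996651-145996667), in which each E-box reads CACGAG. Upstream of it, and ending 12 bases before it, lay a CCAAT box, and a second, in the reverse direction, lay from 140 to 136 bases upstream. The pair was rare, at 20 of 35116 windows (0.057%), whereas CACGTG stood in 7.26% and CCAAT in 34.6% of windows. The spelling of the pair fixes more letters than CACGTG or CCAAT, which by itself lowers its share. The ARRDC4 window held no match to the pair as spelled, but 1 palindromic E-box from 210 to 205 bases upstream and 3 CCAAT boxes. The windows of MLX and MLXIP each held 1 CCAAT box, and that of MLX also held a CACGTG from 50 to 45 bases upstream. Of the 20 genes with the tandem pair, 15 were tested in these libraries.

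The libraries fell into an arrangement that crossed the groups, and it bears on every value below. Over the 12210 genes that reached 1 TPM in 3 or more libraries, deviations from the group mean correlated at r = 0.682 between Vector 1 and CES2 2 and at -0.678 between Vector 1 and CES2 3, a correlation across genes, which are not independent. Vector 1 and CES2 2 were both above the other 4 libraries in 17.1% of tested genes and both below them in 20.5%. The squamous label was matched by 9 of 9 epithelial markers in the table, with KRT5 at 1031 to 2597 TPM, although KRT14 was at only 1.14 to 2.97 TPM. Of the markers of other cell types, 5 of 6 fibroblast, 3 of 5 leukocyte and 1 of 4 endothelial genes had no row in the table analysed here. Summed levels in Vector and CES2 were 4.49 to 9.36 and 3.89 to 10.5 TPM for fibroblast markers (COL1A1 alone), 6.12 to 11.6 and 5.53 to 8.53 TPM for leukocyte markers, and 10.2 to 25.8 and 11.2 to 20.5 TPM for endothelial markers, most of it CDH5. COL1A1 was highest and CDH5 lowest in Vector 1 and CES2 2, and the part of other cells in the results was not tested. CES2 itself was at 41.9 to 45.6 TPM in the Vector libraries and 1929 to 2664 TPM in the CES2 libraries, as labelled, and was the only tested gene past the threshold.

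TXNIP varied more across these libraries than almost any other gene, and its high values lay in 1 library of each group. TXNIP (ENSG00000265972, listed transcript of 8 exons and 2926 bases, chromosome 1 from 145992435 to 145996600, minus strand, GRCh38) read 218, 4.48 and 1.35 TPM in Vector 1 to 3 and 6.20, 95.1 and 0.918 TPM in CES2 1 to 3. Vector 1 and CES2 2 were high, the other 4 libraries were at 6.20 TPM or less, and the groups overlapped throughout. Within Vector, library 1 was 48.6-fold above library 2 and 161-fold above library 3. Within CES2, library 2 was 15.3-fold above library 1 and 104-fold above library 3. The 2 high libraries differed from each other by 2.29-fold. In bulk RNA, more cells with TXNIP and more TXNIP per cell cannot be told apart.

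On the log2(TPM + 1) scale the highest and lowest TXNIP libraries were 6.83 apart, the third widest range of 12210 tested genes (3 genes, or 0.0246%, had a range at least this wide), where the median range was 0.78. The distance from CES2 2 down to CES2 1, the next library, was 3.74 log2 units. Only HNRNPH2 had a wider gap of this kind between Vector 1 and CES2 2 and the rest, and 25 genes (0.205%) had a gap of at least 1. Since the members were chosen with this pattern known, these ranks are descriptions. The histogram of ranges places TXNIP at the far right, beside CES2 itself.

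**Figure D1:**
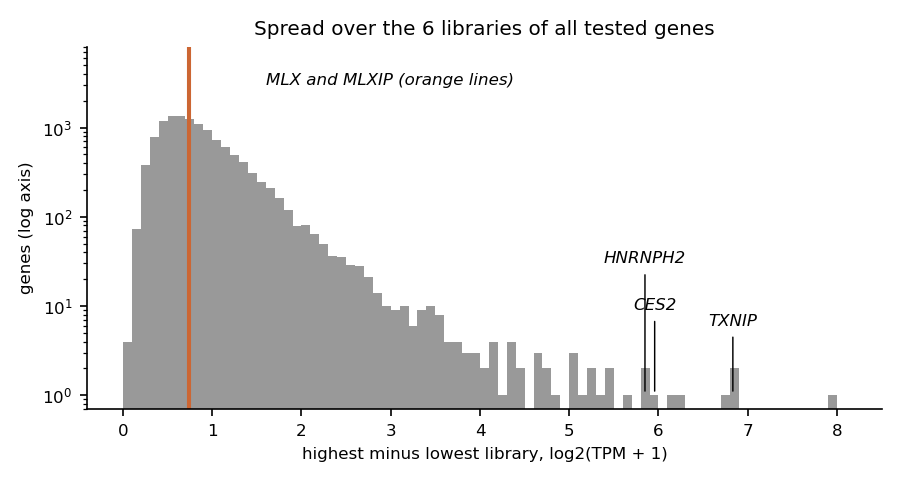
Histogram of the spread of 12210 tested genes over the 6 libraries, as the highest minus the lowest log2(TPM + 1), with the number of genes on a log axis. TXNIP lies at 6.83, while MLX and MLXIP (orange lines) lie at 0.75 and 0.73, close to the median of 0.78.

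ARRDC4 was highest in the same 2 libraries as TXNIP, at a level near the limit of the table. ARRDC4 (ENSG00000140450, 8 exons and 4072 bases, chromosome 15 from 97960698 to 97973838, plus strand) was at 0.640 and 0.0816 TPM in Vector 1 and 2 and at 0.135 and 0.782 TPM in CES2 1 and 2. It was blank, and read as 0, in Vector 3 and CES2 3. CES2 2 and Vector 1 were thus again the 2 highest, here with CES2 2 first, followed by CES2 1 and Vector 2, and the 2 blank libraries were those in which TXNIP was lowest. The ratio of library 1 to library 2 was 7.84 in Vector, and that of library 2 to library 1 was 5.80 in CES2. No library reached 1 TPM, so ARRDC4 entered no test, and without read counts the counting error of such values cannot be given.

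The genes of the MondoA dimer varied far less over the libraries than TXNIP. MLX (ENSG00000108788, 8 exons and 2428 bases, chromosome 17 from 42567068 to 42573239, plus strand) was at 60.0, 86.7 and 77.0 TPM in the Vector libraries and at 75.9, 55.4 and 93.7 TPM in the CES2 libraries. Vector 1 and CES2 2, the libraries with the most TXNIP, had the least MLX, and the groups overlapped. Both-lowest genes made up 20.5% of those tested, so this position is common. PSMC3IP overlaps MLX on the opposite strand, and since the handling of strand in counting is not given in the sources used here, their reads may not be separated. MLXIP (ENSG00000175727, 17 exons and 8427 bases, chromosome 12 from 122078722 to 122147347, plus strand) was at 18.0, 18.5 and 30.1 TPM in the Vector libraries and at 17.7, 19.7 and 25.4 TPM in the CES2 libraries. It was highest in Vector 3 and CES2 3, the libraries with the least TXNIP, and did not set Vector 1 and CES2 2 apart from Vector 2 and CES2 1.

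Compared per length as TPM, the members kept only part of their order. ARRDC4 was the lowest of the 4 in every library and MLX lay above MLXIP in every library. TXNIP was above MLX in Vector 1 and CES2 2 and below MLXIP in the other 4. Pearson r of log2(TPM + 1) over the 6 libraries was 0.970 for TXNIP with ARRDC4, -0.907 for TXNIP with MLX and -0.618 for TXNIP with MLXIP. These are descriptions of 6 points that share the contrast of Vector 1 and CES2 2 with the rest.

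**Figure D2:**
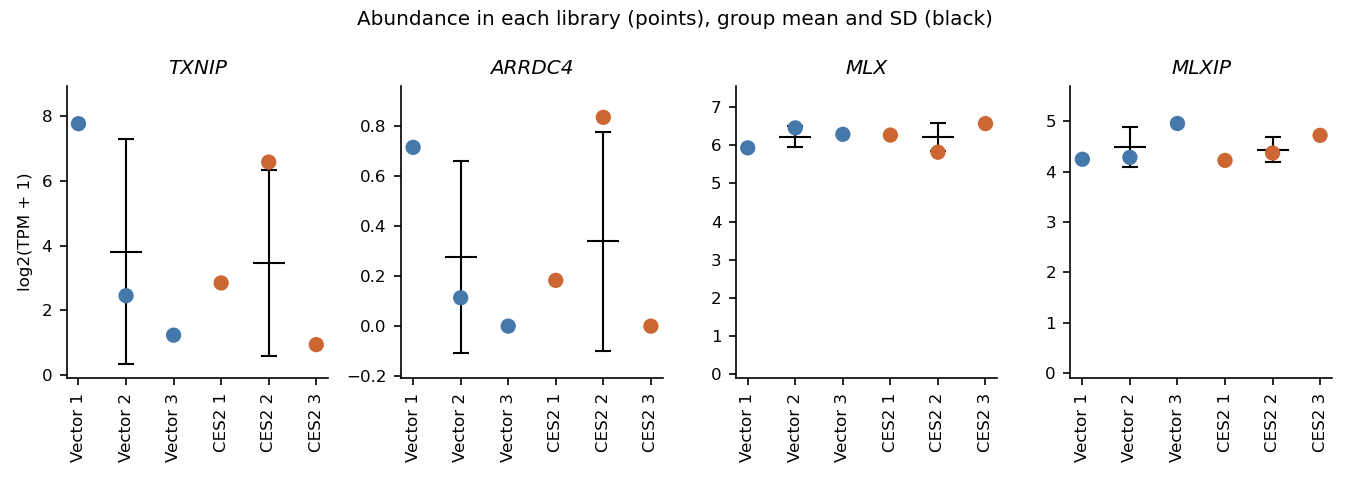
Points give log2(TPM + 1) of TXNIP, ARRDC4, MLX and MLXIP in each library (blue Vector, orange CES2), with the group mean and SD in black, n = 3 each; vertical scales differ between panels. TXNIP and ARRDC4 are high in Vector 1 and CES2 2 alone, MLX and MLXIP are nearly level, and the group means of each gene lie close together.

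The design asks whether raising CES2 changed the transcriptome, and for these genes the groups could not be separated. Mean TXNIP was 74.5 ± 124 TPM in the Vector libraries and 34.1 ± 52.9 TPM in the CES2 libraries (SD, n = 3 each), so the SD exceeded the mean in both. The log2 difference, CES2 minus Vector, was -0.36 with a standard error of 1.82, against a median of -0.057 over all tested genes. It was 1.61 without Vector 1, 0.90 without CES2 3, -1.93 without CES2 2, -1.66 without Vector 3, -1.05 without Vector 2, -0.057 without CES2 1, and 0.050 without both Vector 1 and CES2 2, the last chosen after the values were seen. Its sign thus turned with the library left out. ARRDC4 averaged 0.241 ± 0.348 and 0.306 ± 0.418 TPM, MLX 74.6 ± 13.5 and 75.0 ± 19.2 TPM, and MLXIP 22.2 ± 6.83 and 20.9 ± 3.99 TPM. Their log2 differences were 0.063, -0.008 and -0.056, and those of MLX and MLXIP turned to 0.054 and 0.005 after each library was rescaled to the same median. Of the 3 members tested by limma with Benjamini-Hochberg adjustment, 0 passed 0.05. Of all tested genes, 0.00819% passed. Groups overlapped in all 4 members, whereas 1.07% of tested genes lay wholly higher and 2.63% wholly lower in CES2. Since this contrast was known when the members were chosen, nothing is read from these counts.

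The wider network of MLX and MAX, whose dimers compete for E-boxes, held 13 listed genes, all in the table and 11 of them tested. None passed, 5 were above and 6 below 0, and the median log2 difference was -0.008. MLXIPL, the gene of ChREBP, was at 3.34, 0.126 and 0.612 TPM in the Vector libraries and 0.495, 1.59 and 0.270 TPM in the CES2 libraries. Vector 1 and CES2 2 were again the 2 highest, and its r with TXNIP was 0.911, but only these libraries exceeded 1 TPM. MYC, whose product dimerizes with MAX to activate growth genes, was at 12.3, 18.0 and 54.3 TPM in the Vector libraries and 8.37, 10.9 and 16.9 TPM in the CES2 libraries. Its log2 difference of -0.94 was drawn by Vector 3 and was -0.34 without that library.

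Of the 9 tested genes of the network that are not members, 4 (MAX, MYCL, MXD3 and MXD4) were highest in both Vector 1 and CES2 2. Of all tested genes, 17.1% were. MAX and MXD3 were near ties, ahead of the next library by 0.021 and 0.01 log2 units. Only MLX, a member picked with its values known, was lowest in both, against 20.5% of all tested genes. MYC and the repressor genes MXD1, MNT, MGA and MXI1 were neither. MYCL, a MYC paralogue, was at 14.0, 2.62 and 6.22 TPM in the Vector libraries and 6.27, 13.0 and 2.04 TPM in the CES2 libraries. MXD4, a repressor that pairs with MAX, was at 44.1, 19.9 and 35.9 TPM in the Vector libraries and 38.5, 56.9 and 20.5 TPM in the CES2 libraries. MXI1, another such repressor, was at 35.6, 18.6 and 20.9 TPM in the Vector libraries and 36.2, 44.4 and 9.39 TPM in the CES2 libraries, with CES2 1 above Vector 1.

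The alpha-arrestin genes other than TXNIP and ARRDC4 differed in level and in the library where they were highest. ARRDC1, which takes part in budding of vesicles from the plasma membrane, was the most abundant alpha-arrestin in every library but Vector 1. Its level was 143 to 192 TPM in the 4 libraries with little TXNIP, where that of TXNIP was 6.20 TPM or less, and CES2 2 stood highest at 196 TPM. ARRDC2 ranged from 12.6 to 20.7 TPM. ARRDC3, an adaptor in the turnover of membrane receptors, was at 35.1, 23.0 and 36.7 TPM in the Vector libraries and 93.8, 49.6 and 23.2 TPM in the CES2 libraries. It was highest in CES2 1, and its log2 difference of 0.61 was 0.13 without that library. Of the 4 tested alpha-arrestins 0 passed. Of the 3 that are not members 0 were highest in both Vector 1 and CES2 2, against 17.1% of all tested genes. The beta-arrestin genes ARRB1 and ARRB2 were both tested, 0 passed, and their median log2 difference was 0.075. The heat map of the network and the alpha-arrestins shows each gene by library.

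**Figure D3:**
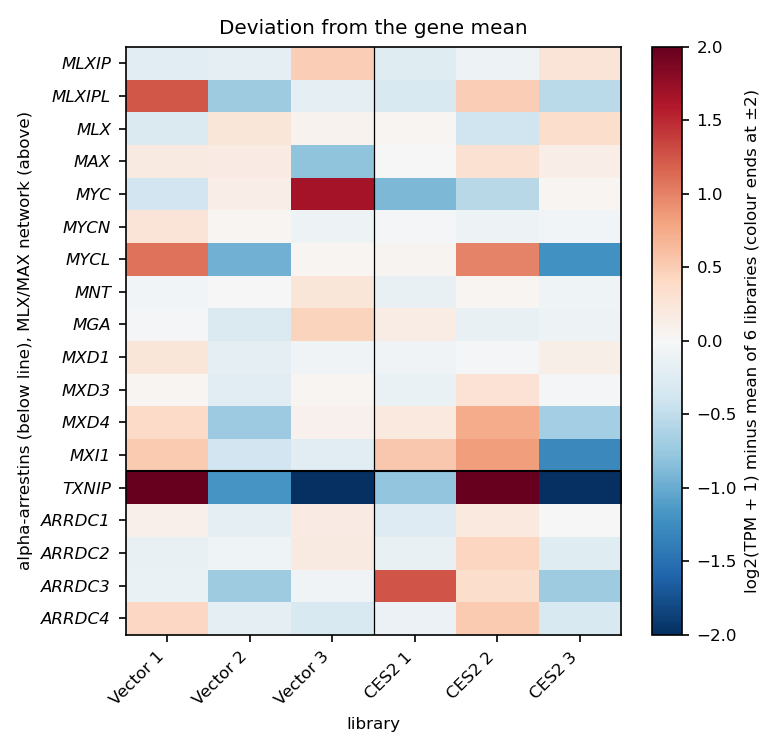
Colours give log2(TPM + 1) of each gene minus its mean over the 6 libraries, for the listed genes of the MLX and MAX network (above the black line) and the alpha-arrestins (below it); columns are libraries. TXNIP runs past both ends of the scale, with Vector 1 and CES2 2 high, and MLXIPL and MYCL are high in the same columns.

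Other described MondoA or ChREBP targets did not follow TXNIP at its scale. Of 22 listed, 17 were in the table and 15 tested, and 0 passed, with 4 above and 11 below 0 and a median log2 difference of -0.11. Apart from TXNIP, 2 of 14 tested genes, against 17.1% of all, were highest in both Vector 1 and CES2 2. These were KLF10, a TGF-beta-inducible zinc finger gene, and FASN, the fatty acid synthase gene. FASN was at 1596, 497 and 989 TPM in the Vector libraries and 805, 1100 and 543 TPM in the CES2 libraries. KLF10 ranged only from 32.1 to 53.5 TPM. SCD, which encodes stearoyl-CoA desaturase, had the lowest log2 difference of the list, -0.38, and was at 1595, 669 and 1262 TPM in the Vector libraries and 1326, 1146 and 399 TPM in the CES2 libraries. HK2 and PFKFB3, which encode a hexokinase and a regulator of glycolytic flux, were both highest in CES2 1, at 70.8 and 124 TPM.

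Genes that hold the same tandem E-box pair as TXNIP differed in the libraries where they were highest. Of the 15 tested, 2 were highest in Vector 1 and CES2 2, against 17.1% of all tested genes. These were TXNIP itself, chosen with its values known, and ATP5ME, a subunit gene of ATP synthase, the only other. Another 3 (KCTD5, MTHFS and PPP2R3C) were lowest there, against 20.5%, and these genes were named after their values were seen. ATP5ME was at 255, 241 and 112 TPM in the Vector libraries and 244, 325 and 137 TPM in the CES2 libraries, so the margin over the next library was small. GFPT1, the first enzyme of the hexosamine pathway, was at 30.6, 21.5 and 23.8 TPM in the Vector libraries and 25.0, 21.6 and 18.2 TPM in the CES2 libraries.

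Genes of the TXNIP protein's partners showed no group difference past the threshold. In the thioredoxin system 17 of 18 listed genes were in the table and tested, 0 passed, and the median log2 difference was -0.039. TXN, the gene of cytosolic thioredoxin that TXNIP binds, was at 782, 729 and 521 TPM in the Vector libraries and 699, 648 and 605 TPM in the CES2 libraries. TXNRD1, the reductase that recharges it, was at 434, 152 and 163 TPM in the Vector libraries and 233, 234 and 451 TPM in the CES2 libraries, high in Vector 1 and in CES2 3. RRM2, a subunit of ribonucleotide reductase, an enzyme that thioredoxin reduces, was at 94.3, 363 and 294 TPM in the Vector libraries and 246, 88.6 and 353 TPM in the CES2 libraries. Of the 17 tested genes, 4 (RRM2, RRM1, PRDX2 and PRDX4) were lowest in both Vector 1 and CES2 2, against 20.5% of all tested genes, and 2 (PRDX5 and MSRB2) were highest in both, against 17.1%. The NEDD4-family ubiquitin ligases, which include ITCH, known to target TXNIP, had 7 tested genes of 9 listed, 0 past the threshold and a median of -0.038. ITCH itself stayed within 46.3 to 55.7 TPM.

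Genes of glucose uptake and phosphorylation were described because TXNIP and ARRDC4 restrain uptake. Of 19 listed, 13 were in the table and tested, 0 passed, and the median log2 difference was 0.021. SLC2A1, the gene of the transporter GLUT1, was at 204, 252 and 254 TPM in the Vector libraries and 289, 229 and 138 TPM in the CES2 libraries, so neither high-TXNIP library stood at an end of its range. SLC2A12, another glucose transporter gene, was highest in Vector 1 and CES2 2, at 15.3, 2.1 and 6.19 TPM in the Vector libraries and 11.6, 16.1 and 2.61 TPM in the CES2 libraries. SLC2A13 shared that position (2 of 13, against 17.1% of all tested genes), and SLC2A8 and ADPGK, an ADP-dependent glucokinase gene, were lowest in both (2 of 13, against 20.5%). SLC2A6 was at 11.3, 7.40 and 14.3 TPM in the Vector libraries and 21.7, 26.2 and 14.4 TPM in the CES2 libraries, giving a log2 difference of 0.86 (standard error 0.31, limma adjusted p = 1.0). The SLC2A6 groups did not overlap, by a margin smaller than 0.1 TPM, and 1.07% of all tested genes lay wholly higher in CES2.

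Upstream regulators and downstream partners gave no group difference past the threshold either. AMPK, the energy sensor that phosphorylates TXNIP, and its activator LKB1 had 9 tested genes of 10, 0 passed, and the median was -0.14. Of that list, CAB39 lay wholly lower in CES2, at 50.5 to 55.4 TPM against 58.5 to 66.4 TPM in Vector, as did 2.63% of all tested genes. Described regulators of TXNIP transcription had 10 tested genes of 10, 0 passed, and a median of -0.005, with VDR highest at 0.33 and FOXO1 lowest at -0.28. Of these regulators 3 (NFYA, VDR and EZH2) were lowest in both Vector 1 and CES2 2, against 20.5% of all tested genes, and 0 were highest in both. NFYA, a subunit of the factor that binds CCAAT boxes, was at 29.1 and 31.2 TPM there and at 34.3 to 39.9 TPM in the rest, whereas the genes of the other subunits, NFYB and NFYC, were neither highest nor lowest in both libraries. Inflammasome genes, described because TXNIP is reported to bind NLRP3, had 5 tested genes of 6, 0 passed, and a median of -0.006, and NLRP3 is not analysed here. IL1B was at 8.04, 4.54 and 2.60 TPM in the Vector libraries and 7.71, 12.5 and 9.81 TPM in the CES2 libraries, giving a log2 difference of 0.94 (standard error 0.36, limma adjusted p = 1.0). Over all 13 lists, 119 genes other than the members were tested by limma, and 0 passed. Of these 119, 2 genes, IL1B and SLC2A6, had an unadjusted limma p under 0.05, against 133 of all 12210 tested genes.

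**Figure D4:**
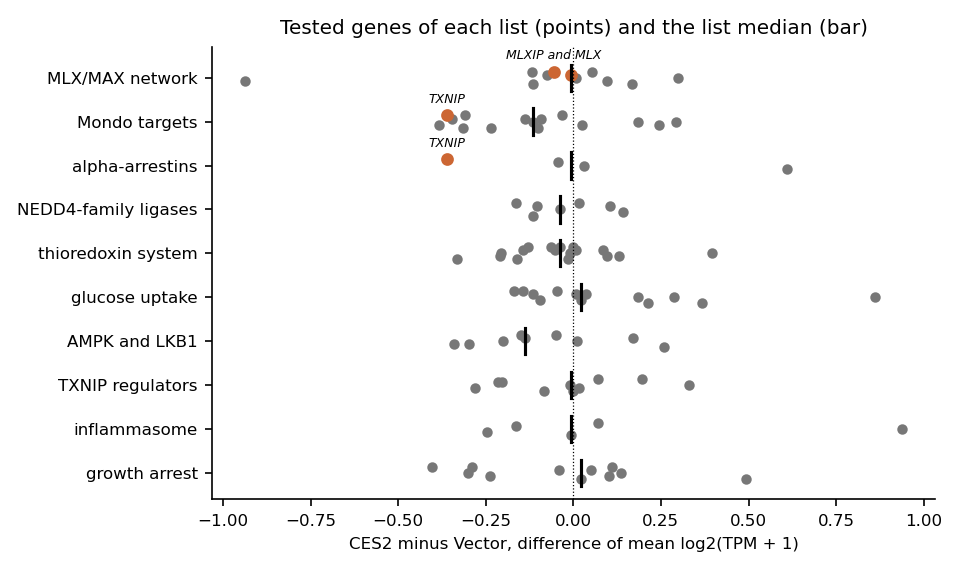
Each point is a tested gene, placed by its difference of mean log2(TPM + 1), CES2 minus Vector, in lists drawn up for the biology of TXNIP; bars mark list medians and orange points the members. The medians drawn lie between -0.14 and 0.021, and ARRDC4 is missing because it was not tested.

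The genes whose pattern was most like that of TXNIP moved far less than TXNIP did. Among 3820 other tested genes with a symbol of their own and a range of at least 1 log2 unit, the highest Pearson r with TXNIP over the 6 libraries was 0.994 for TMEM40 and GADD45A, a growth arrest and DNA damage gene, followed by IL15, RAB17 and CACNB1 (0.988 to 0.992). GADD45A was at 72.3, 38.5 and 32.7 TPM in the Vector libraries and 38.3, 57.1 and 32.2 TPM in the CES2 libraries. The range of these 5 genes was 1.02 to 1.37 log2 units against 6.83 for TXNIP. Among the most opposite were GBX2, GPS2, EXOSC6 and YWHAH (r from -0.996 for GBX2 to -0.988 for YWHAH). These r values rest on 6 points and on genes picked from 3820, and the 6 libraries stood in the TXNIP order in 83 tested genes (0.68%).

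For ARRDC4 the likest were PNISR, USP49, HNRNPH2, RNF44 and TXNIP itself, the fifth of 3821 (r = 0.970). Both TXNIP and ARRDC4 were chosen with their values known, so the place of TXNIP is a description. ARRDC4 stayed under 1 TPM in every library and was blank in Vector 3 and CES2 3, so its r values rest on levels near the floor. The most opposite were SLBP, USP1, MCM10, RBL1 and ZNF367 (r from -0.984 to -0.992). SLBP binds histone messages, MCM10 serves DNA replication, and USP1 is a deubiquitinase of DNA repair. MCM10 was at 18.0, 45.1 and 53.2 TPM in the Vector libraries and 36.6, 18.0 and 58.4 TPM in the CES2 libraries, so Vector 1 and CES2 2 were low and the rest high.

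**Figure D5:**
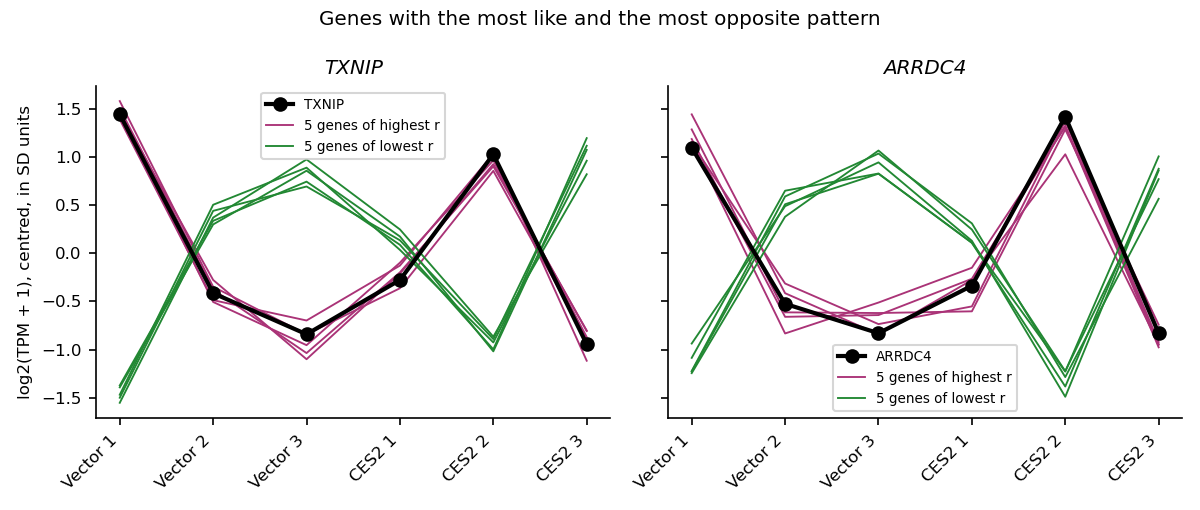
Lines give log2(TPM + 1) over the 6 libraries, centred and in SD units, for TXNIP (left, black) and ARRDC4 (right, black), with the 5 genes of highest Pearson r (purple) and of lowest r (green). The purple lines peak at Vector 1 and CES2 2 and the green ones dip there, and the scaling hides that the other genes, apart from HNRNPH2 and TXNIP on the right, span under 2 log2 units.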

How the data were processed

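The authors deposited 1 table with a value per gene and library for 6 libraries. Its header names no unit, and TPM was inferred because sums of the deposited columns lay from 999804 to 999893. Per the submitters' processing notes, StringTie 1.3.3, HISAT2 2.1.0, edgeR 3.0.8 and the builds GRCh38 and hg38 were used, with no role stated. How genes were annotated and filtered is not given in the sources used here. Per the file headers, num_exons and length describe the listed transcript. Between 73 and 279 entries per library were blank and were read as 0.

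Groups came from the labels, which name no batch. The 12210 genes that reached 1 TPM in 3 or more libraries were compared on log2(TPM + 1), which understates changes of low genes. The test was limma 3.58.1 (R 4.3.3) with intensity trend, Benjamini-Hochberg adjustment over all these genes and a threshold of 0.05. It was tried on simulated data with independent noise in each library. Deviations shared between libraries, as in Vector 1 and CES2 2, were not simulated. Figures and counts used Python 3.11.15. TPM keeps no depth, so no counting interval is given. The members and the lists of pathway genes were chosen with earlier results of these data known. Named genes were the members, CES2, up to 4 genes per list with the largest difference, all genes of the MLX and MAX network and the alpha-arrestins, genes of the glucose uptake, hypoxia and sterol lists highest or lowest in both Vector 1 and CES2 2, and the 5 likest and 5 most opposite genes. Others, including genes of other lists named for that position, were chosen after their values were seen, and some genes that the rule names are not reported here. Of 143 list names, 13 matched no row. Alternatives were each library left out, a block for replicate number, rescaling to equal medians, quantile normalization, other filters, a pseudocount of 0.1 and no trend.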

Additional observations from a re-analysis of the deposited data

How the results depend on the processing

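CES2 was the 1 gene past the threshold with all libraries, and between 1 and 2 genes passed when a library was left out, RTEL1-TNFRSF6B joining without CES2 3. Without both Vector 1 and CES2 2 there were 2 genes, CES2 and S100A8. The replicate block, the 2 rescalings, the other filters, the pseudocount of 0.1 and no trend each gave 1. The labels give both groups the numbers 1 to 3, without saying whether a number marks a shared culture or day. Deviations of same-numbered libraries from their group means correlated at r = 0.145, -0.524 and 0.375. With 3 libraries per mean such r values depend on each other and cannot settle this, so the block is an alternative alone. With the replicate block CES2 kept an adjusted p of 0.000869 by limma. The TXNIP gap of 3.74 log2 units was 3.77 after median rescaling, 3.78 after quantile normalization and 3.92 with a pseudocount of 0.1. That of ARRDC4 was 0.53, and 1.66 with a pseudocount of 0.1, and ARRDC4 could not be fitted in the rescalings, which cover tested genes. Of 49 genes followed (CES2 and genes of the lists), 0 came past the threshold that had not passed, and 19 changed sign at least once. Leaving out each library in turn, log2 differences ranged from -0.026 to 0.47 for MAX, -0.16 to 0.55 for MXD4, -0.74 to 0.16 for SCD, -0.16 to 0.071 for ARRDC1, -0.18 to 0.16 for ARRDC2, -0.009 to 0.46 for ARRB1, -0.089 to 0.064 for ARRB2, -0.23 to 0.033 for NEDD4L, -0.015 to 0.33 for SMURF2, -0.62 to 0.20 for MSRB3, -0.50 to 0.058 for MSRB2, -0.23 to 1.04 for SLC2A12, -0.32 to 0.045 for CASP1, -0.28 to 0.42 for PYCARD, -0.12 to 1.3 for DDIT4, -0.83 to 0.32 for YPEL5, -0.96 to 0.70 for TSC22D3, -0.20 to 0.53 for LSS and -0.22 to 0.66 for INSIG1. ARRDC1 was at 0.017 and ARRB2 at 0.040 after median rescaling, ARRB2 at 0.021 after quantile normalization, and ARRDC2 at -0.24, PYCARD at -0.12 and TSC22D3 at 0.23 without Vector 1 and CES2 2. The cause was not tested. TPM without read counts leaves the precision of low genes such as ARRDC4 unknown.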

Other observations

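Some genes known to rise in growth arrest or nutrient stress were also highest in the libraries with much TXNIP. Of 12 listed, 11 were tested, and 0 passed in CES2 against Vector by limma (0 at an unadjusted p under 0.05). Of the tested, 6 were highest in both Vector 1 and CES2 2, where 17.1% of all tested genes were. The list was drawn up with earlier results of these data known, so these counts are descriptions. TSC22D3, the glucocorticoid-induced leucine zipper gene, was at 159, 14.9 and 24.9 TPM in the Vector libraries and 39.3, 63.1 and 13.0 TPM in the CES2 libraries. DDIT4, an inhibitor of mTORC1 that stress induces, was at 3414, 552 and 1129 TPM in the Vector libraries and 2904, 3448 and 592 TPM in the CES2 libraries, so CES2 1 stood with the 2 high-TXNIP libraries. YPEL5 was at 73.7, 15.4 and 31.8 TPM in the Vector libraries and 34.9, 49.9 and 10.8 TPM in the CES2 libraries. KLF9, too low to be tested, was at 3.25, 0.294 and 0.442 TPM in the Vector libraries and 0.881, 2.11 and 0.109 TPM in the CES2 libraries and was named after its values were seen.

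In neither the sterol synthesis nor the hypoxia list did a gene pass in CES2 against Vector by limma (0 at an unadjusted p under 0.05), with median log2 differences of 0.14 and 0.12. Of 10 tested hypoxia genes 0 were highest in both Vector 1 and CES2 2, against 17.1% of all tested genes, and their summed level was highest in CES2 1, at 1660 TPM, against 860 TPM in Vector 1 and 1110 TPM in CES2 2.

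HNRNPH2, the one gene with a wider gap than TXNIP, was at 125, 1.83 and 1.79 TPM in the Vector libraries and 1.89, 125 and 1.19 TPM in the CES2 libraries. GENCODE release 29 lists a read-through gene, RPL36A-HNRNPH2, over it on the same strand, and that entry ran the opposite way, at 1.72, 74.1 and 87.5 TPM in the Vector libraries and 81.0, 2.95 and 64.0 TPM in the CES2 libraries. The sum of the 2 entries was 126, 76.0 and 89.3 TPM in the Vector libraries and 82.9, 128 and 65.1 TPM in the CES2 libraries, a far narrower spread than either alone. No other gene of GENCODE release 29 overlaps the listed transcript of TXNIP or ARRDC4. How reads were assigned was not tested for any of these genes.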
